A study of Mus musculus with 9 samples.

Results

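The genes described here are 9 complement components and receptors, chosen by their symbols: C1qa, C1qb, C1qc, C3, C2, Cfb, Cfp, C3ar1 and C5ar1. Each matched 1 row of a table that holds 45535 rows with a gene symbol. The RNA came from CD103+ dendritic cells (DCs), antigen-presenting cells that carry the integrin CD103, of C57/BL6j mice under bleomycin, which injures the lung and leads to scarring, for 7 days. Lungs were digested with collagenase and the cells were isolated with magnetic beads. The group before culture (5 libraries, B1 to B5, replicates 1 to 5) was taken directly, and the group after culture (4 libraries, A1, A3, A4 and A5, replicates 1 to 4) was first cultured for 18 h (RPMI with fetal bovine serum, penicillin and streptomycin). All mice had received bleomycin, and no untreated mouse or other culture time is used here. The labels give no age, no sex and no number of mice per library, so the p-values below measure the spread between these libraries. The extraction note speaks of RNA of the total lung, while the sample labels name the isolated cells.

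Complement is a cascade of plasma and cell-made proteins that tags particles for uptake and calls in leukocytes. The classical pathway starts when C1q, built from the chains of C1qa, C1qb and C1qc, binds a target, and the serine protease C2 then joins C4 in a C3-cleaving convertase. The alternative pathway builds its own convertase from C3 and factor B (Cfb), which properdin (Cfp) stabilizes. Cleavage of C3 and C5 releases the peptides C3a and C5a, which act through the receptors C3AR1 and C5AR1 on myeloid cells. In tissues, macrophages are the best known source of C1q, and they also express both receptors.

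Values are normalized counts, the authors' read counts per gene divided by 1 factor per library. Depth was 14.7 to 35.3 M reads per library in rows with a symbol. All 8 listed markers of type 1 conventional DCs were read in every library. They summed to 111774 to 137940 before and 16128 to 17485 after culture, and Wdfy4 made up most of the sum before culture. Of these 8 markers, 7 fell and Batf3 rose. Among those that fell, the mean of Itgae went from 18138 to 1727 and that of Xcr1 from 5836 to 114. All 16 macrophage and monocyte markers were also read in every library, and none was at 0 in any. Libraries B4 and A4 had the lowest macrophage and monocyte sums and the highest epithelial sums of their groups, so the changes below are also given without these libraries.

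Culture was followed by lower levels of most of the components and a higher level of 1 receptor. Of the 9 genes, 6 fell (C1qa, C1qb, C1qc, C3, C2 and Cfp), C3ar1 rose, and Cfb and C5ar1 did not pass the test (limma, adjusted p under 0.05 over all 18202 genes tested). Across all genes tested, 68.8% passed in either direction, 34.6% as lower and 34.2% as higher after culture. The median log2 change of the 9 genes was −1.11, beside 0.0065 over all genes tested. The groups did not overlap for C3, C2 and C3ar1, 3 of the 9, where 57.3% of all genes tested had no overlap. A change of at least 2-fold was called as lower for 5 of the 9 (C1qa, C1qb, C1qc, C3 and C2), beside 18.6% of all genes tested, and as higher for C3ar1, beside 14.1%.

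**Figure D1:**
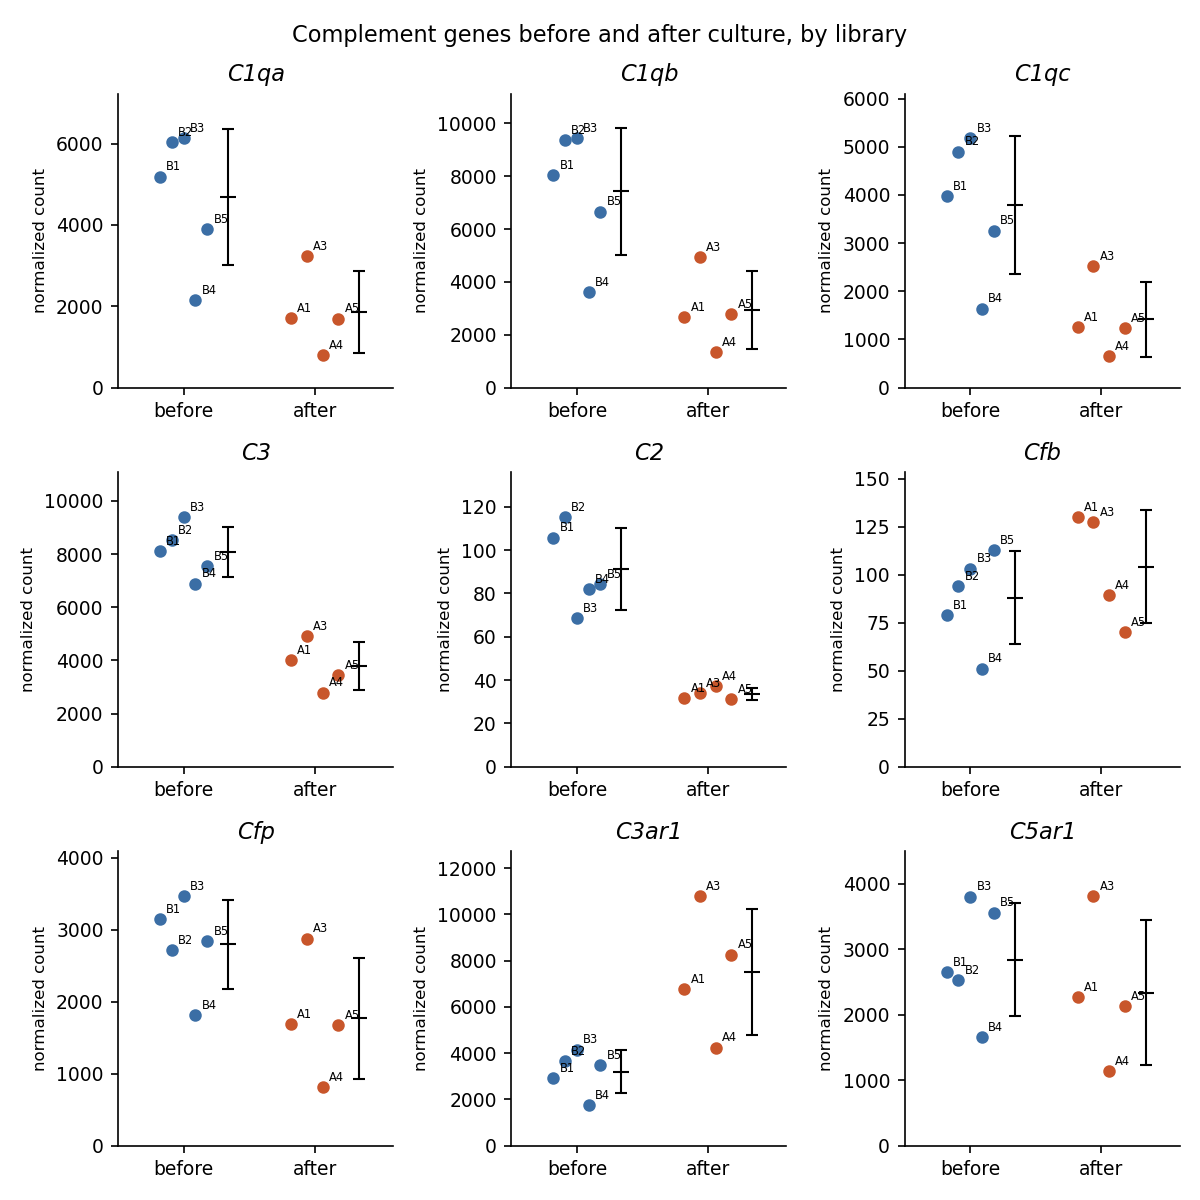
Normalized count (vertical axis, from 0) of each of the 9 genes in 5 libraries before and 4 after culture; points are libraries, and the bar beside each group is its mean ± SD. The C3 and C2 points after culture lie below all points before it, those of C3ar1 lie above, and B4 and A4 are the lowest of their group for the C1q chains, C3, Cfp, C3ar1 and C5ar1, except that C2 and Cfb follow other orders.

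The C1q chains are encoded side by side on chromosome 4, all on the minus strand: C1qb at chr4:136880129-136886187, C1qc at chr4:136889804-136893065 and C1qa at chr4:136895917-136898803 (GRCm38, GENCODE M21). The RefSeq promoter table (GRCm38.p6, 250 bases before to 50 after the start) holds windows for 6 of the 9 genes, C1qa, C2 and Cfb not among them. The windows of C1qb (chr4:136886151-136886450, minus strand) and C1qc (chr4:136892865-136893164, minus strand) are shown because both genes fell together. Capitals mark a match, on either strand, to any of 8 motifs: ISRE and kappaB by name, GAS (TTCNNNGAA), PU.1 (GAGGAAG), the Maf recognition core (TGCTGAC), C/EBP (TTNNGCAA), CRE (TGACGTCA) and AP-1 (TGANTCA).
C1qb: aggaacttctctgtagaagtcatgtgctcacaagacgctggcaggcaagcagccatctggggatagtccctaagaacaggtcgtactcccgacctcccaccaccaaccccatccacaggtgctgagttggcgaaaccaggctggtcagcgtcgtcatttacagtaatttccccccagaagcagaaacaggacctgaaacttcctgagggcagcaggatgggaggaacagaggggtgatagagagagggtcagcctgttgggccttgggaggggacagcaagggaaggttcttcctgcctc
C1qc: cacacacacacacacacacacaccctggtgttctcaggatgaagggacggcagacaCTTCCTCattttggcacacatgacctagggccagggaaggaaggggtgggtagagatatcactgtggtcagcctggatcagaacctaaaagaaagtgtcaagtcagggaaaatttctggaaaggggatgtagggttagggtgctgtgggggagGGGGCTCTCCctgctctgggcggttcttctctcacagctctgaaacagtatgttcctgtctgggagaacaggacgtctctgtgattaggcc
The C1qb window held no match to these 8 motifs. The C1qc window held a PU.1 core on the minus strand from −194 to −188 and a kappaB match from −41 to −32, counted from the start site, with no overlap between them. Of 32851 windows of the same length, 13.6% hold the PU.1 core and 8.46% a kappaB match.

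C1qa encodes the A chain of C1q. Its normalized count was 5186, 6039, 6130, 2158 and 3904 in B1 to B5, and 1706, 3240, 800 and 1699 in A1, A3, A4 and A5. Library B4 lay below A3, so the groups overlapped, although the other 4 libraries before culture were above all 4 after it. The mean fell from 4683 ± 1671 (SD, n = 5) to 1861 ± 1013 (SD, n = 4), 2.52-fold lower, with a log2 change of −1.40 (SE 0.36, limma adjusted p = 0.00323).

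C1qb encodes the B chain and had the highest count of the trio. It read 8039, 9361, 9431, 3625 and 6662 in B1 to B5, and 2680, 4940, 1350 and 2795 in A1, A3, A4 and A5. Its group means were 7424 ± 2407 before (SD, n = 5) and 2941 ± 1485 after culture (SD, n = 4), a log2 change of −1.40 (SE 0.33, limma adjusted p = 0.00187). As for the A chain, B4 alone fell into the range after culture.

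C1qc encodes the C chain. It read 3980, 4900, 5173, 1640 and 3260 in B1 to B5, and 1256, 2518, 652 and 1233 in A1, A3, A4 and A5. Its means were 3791 ± 1422 (SD, n = 5) and 1415 ± 787 (SD, n = 4), a log2 change of −1.48 (SE 0.36, limma adjusted p = 0.00245). The libraries thus stood in much the same order for all 3 chains, with B3 highest and B4 lowest before culture, and A3 highest and A4 lowest after it.

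The ratios between the chains covered overlapping ranges before and after culture. Counts of C1qa were 0.586 to 0.650 of those of C1qb before and 0.592 to 0.656 after culture, a difference of −0.0020 in the mean log2 ratio (exact two-sided permutation test, n = 5 and n = 4, p = 0.968, adjusted over the 4 ratios tested 0.968). Counts of C1qc were 0.452 to 0.549 of those of C1qb before and 0.441 to 0.510 after culture, a log2 difference of −0.075 (exact permutation test, n = 5 and n = 4, p = 0.286, adjusted 0.381). Neither difference passed, while the level of each chain varied by 32.4 to 37.5% (coefficient of variation) between libraries before and by 50.5 to 55.6% after culture. A p above the threshold does not show that the ratios were equal.

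The 16 macrophage and monocyte markers summed to 60169 to 85832 before and 47470 to 79254 after culture, and the groups overlapped. Of the 16, 4 rose, 6 fell and 6 did not pass, while of all genes tested 34.2% rose and 34.6% fell. Csf1r, the receptor for the macrophage growth factor CSF1, had means of 11801 ± 2414 (SD, n = 5) and 14883 ± 3908 (SD, n = 4) and did not pass, and Cd68, a lysosomal protein of macrophages, rose from 9503 ± 1626 to 17460 ± 4215. Ccr2, a monocyte chemokine receptor, fell from 10869 ± 468 to 1980 ± 157. The part of macrophages in the C1q result was not tested, and in bulk RNA fewer cells of a type and less RNA per cell cannot be told apart.

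C3, the central component cleaved by both convertases, lies at chr17:57203970-57228136 on the minus strand (GRCm38). Its count was 8098, 8513, 9378, 6887 and 7552 in B1 to B5, and 4018, 4920, 2784 and 3458 in A1, A3, A4 and A5. Every library after culture was below every library before it. The mean fell from 8085 ± 945 (SD, n = 5) to 3795 ± 904 (SD, n = 4), 2.13-fold lower (log2 change −1.11, SE 0.14, limma adjusted p = 9.69e-06). C3 varied less between libraries before culture (11.7%) than each of the C1q chains. Its promoter window (chr17:57228087-57228386, minus strand, RefSeq GRCm38.p6) is shown because C3 had the smallest adjusted p of the 9 genes. Capitals mark a C/EBP match on the minus strand, from −45 to −38, the only match there to the 8 motifs, and 10.8% of windows hold this motif.
C3: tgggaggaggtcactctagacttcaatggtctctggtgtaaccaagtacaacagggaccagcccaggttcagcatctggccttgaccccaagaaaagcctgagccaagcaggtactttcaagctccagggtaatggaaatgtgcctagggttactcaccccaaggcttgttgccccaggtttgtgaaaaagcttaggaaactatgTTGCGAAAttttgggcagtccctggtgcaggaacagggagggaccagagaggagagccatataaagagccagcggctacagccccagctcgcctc

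C2, the classical pathway protease, and Cfb, its alternative pathway counterpart, are neighbours on the minus strand of chromosome 17, at chr17:34862604-34898265 and chr17:34856374-34862518 (GRCm38). Both were read at low levels. C2 had 105.7, 115.1, 68.4, 82.0 and 84.1 normalized counts in B1 to B5, and 31.8, 34.1, 37.3 and 31.2 in A1, A3, A4 and A5, without overlap. It fell 2.71-fold, from 91.1 ± 18.9 (SD, n = 5) to 33.6 ± 2.78 (SD, n = 4), a log2 change of −1.39 (SE 0.19, limma adjusted p = 2.33e-05).

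Cfb had 79.0, 94.0, 103.2, 51.1 and 112.8 normalized counts in B1 to B5, and 129.8, 127.4, 89.2 and 69.9 in A1, A3, A4 and A5. The groups overlapped, with the highest values in A1 and A3 and the lowest in B4. Its means of 88.0 ± 24.1 (SD, n = 5) and 104.1 ± 29.4 (SD, n = 4) gave a log2 change of 0.24 (SE 0.25, limma adjusted p = 0.402), which did not pass. The ratio of C2 to Cfb was 0.663 to 1.61 before and 0.245 to 0.446 after culture and did not overlap (log2 difference −1.64, exact two-sided permutation test, n = 5 and n = 4, p = 0.0159, the smallest this design allows, adjusted 0.0317). The values of both genes are uncertain, because 42.8% of the C2 exon bases and 79.5% of the Cfb exon bases are also exons of the read-through gene Gm20547 on the same strand, which is listed at 0 in all 9 libraries.

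Cfp encodes properdin, the positive regulator of the alternative convertase, which neutrophils and monocytes are known to store or make. It lies at chrX:20925454-20931555 (GRCm38). Its count was 3152, 2721, 3463, 1814 and 2843 in B1 to B5, and 1692, 2878, 817 and 1679 in A1, A3, A4 and A5. Library A3 reached the level of most libraries before culture, and A4 was the lowest of all 9. The mean went from 2798 ± 621 (SD, n = 5) to 1767 ± 847 (SD, n = 4), 1.58-fold lower (log2 change −0.77, SE 0.28, limma adjusted p = 0.0258). This call was lost without B1 (adjusted p = 0.0548), B3 (0.0585) or A4 (0.0727, log2 change −0.44) (0.00169 to 0.0727 with each library left out in turn), and in the DESeq2 Wald test (0.0685). All 8 of the 10 neutrophil markers that could be tested fell as well, beside 34.6% of all genes tested. The list summed to 12865 to 22179 before and 818 to 1715 after culture. Of the neutrophil markers, S100a9, Ly6g, Mpo and Camp were at 0 in at least 1 library. Their part in the Cfp result was not tested.

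The receptors moved apart. C3ar1, the receptor for C3a, lies at chr6:122847138-122856161 and C5ar1, the receptor for C5a, at chr7:16246743-16259540, both on the minus strand (GRCm38). Their promoter windows (chr6:122856108-122856407 and chr7:16259289-16259588, minus strand, RefSeq GRCm38.p6) are shown because of this difference. Capitals mark an AP-1 match in C3ar1 from −22 to −16, the only match to the 8 motifs in either window, and 7.81% of windows hold it.
C3ar1: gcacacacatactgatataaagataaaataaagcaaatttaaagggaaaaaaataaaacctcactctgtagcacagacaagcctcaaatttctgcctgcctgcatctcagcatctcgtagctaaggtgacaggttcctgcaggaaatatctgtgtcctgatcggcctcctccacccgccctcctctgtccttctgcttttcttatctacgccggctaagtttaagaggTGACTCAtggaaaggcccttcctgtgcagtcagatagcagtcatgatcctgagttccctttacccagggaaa
C5ar1: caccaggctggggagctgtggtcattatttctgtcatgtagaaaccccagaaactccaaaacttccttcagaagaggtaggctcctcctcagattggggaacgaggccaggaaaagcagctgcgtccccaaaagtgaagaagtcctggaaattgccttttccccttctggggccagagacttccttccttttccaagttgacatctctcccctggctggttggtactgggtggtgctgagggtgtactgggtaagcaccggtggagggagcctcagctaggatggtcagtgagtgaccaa

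C3ar1 had a count of 2929, 3668, 4153, 1743 and 3483 in B1 to B5, and 6757, 10774, 4235 and 8262 in A1, A3, A4 and A5. The lowest library after culture, A4, was just above the highest before it, B3. C3ar1 rose 2.35-fold, from 3195 ± 922 (SD, n = 5) to 7507 ± 2739 (SD, n = 4), a log2 change of 1.21 (SE 0.26, limma adjusted p = 0.00107). It was the only one of the 9 genes called as higher.

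C5ar1 had a count of 2654, 2526, 3804, 1656 and 3560 in B1 to B5, and 2275, 3810, 1139 and 2129 in A1, A3, A4 and A5. The groups overlapped, with A3 at the level of B3. Its means were 2840 ± 864 (SD, n = 5) and 2338 ± 1103 (SD, n = 4), a log2 change of −0.35 (SE 0.29, limma adjusted p = 0.309). Leaving out A3 turned this into a call, at a log2 change of −0.62 and an adjusted p of 0.0485; with each library left out in turn the adjusted p ran from 0.0485 to 0.880.

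Within a library, C5ar1 counts were 0.689 to 1.02 of those of C3ar1 before and 0.258 to 0.354 after culture. This ratio did not overlap between groups (log2 difference −1.56, exact two-sided permutation test, n = 5 and n = 4, p = 0.0159, the smallest this design allows, adjusted over the 4 ratios 0.0317). The shift in this ratio was larger than the spread between libraries.

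**Figure D2:**
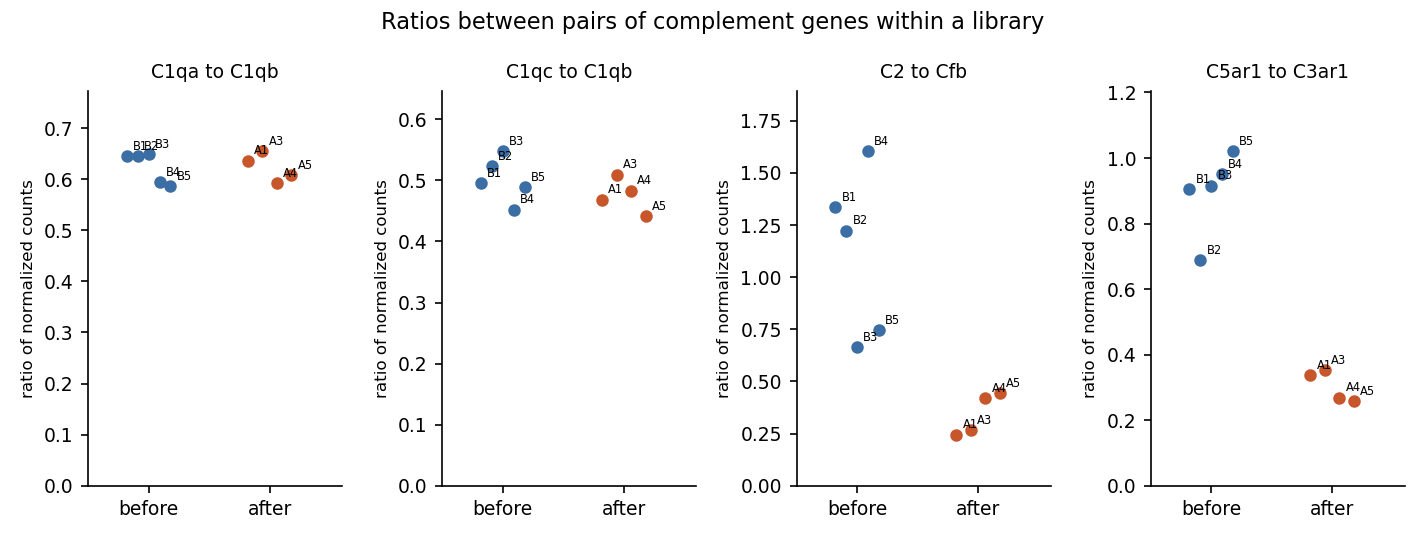
Ratio of the normalized counts of 2 genes within each library (vertical axis, from 0), for 4 pairs of genes, in 5 libraries before and 4 after culture; each point is a library. For each C1q chain ratio the ranges before and after culture overlap. C2 to Cfb and C5ar1 to C3ar1 are lower in every library after culture than in every library before it. C5ar1 to C3ar1 lies at 0.258 to 0.354 after against 0.689 to 1.02 before culture.

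Compared per length, the C1q chains had the highest means of the 9 genes before culture. In RPKM (reads per kilobase of exon per M reads in rows with a symbol), the level was 261.7 ± 79.2 for C1qb, 172.6 ± 58.1 for C1qa, 75.2 ± 26.7 for C1qc, 62.0 ± 11.9 for Cfp, 60.7 ± 5.33 for C3, 42.4 ± 11.7 for C5ar1 and 28.5 ± 7.47 for C3ar1 (SD, n = 5). Because the libraries vary together, neighbours in this order were also compared within each library, as a description. C1qb was above C1qa, C1qa above C1qc, C3 above C5ar1 and C5ar1 above C3ar1 in all 5 libraries. C1qc was above Cfp in 4 of 5 and Cfp above C3 in 3 of 5, so the order of these neighbours was not the same in every library. Cfb (1.197 ± 0.298) and C2 (0.910 ± 0.188) were far below the rest, with Cfb the higher in 4 of 5 libraries. The order of this pair depends on the length used. With the longest transcript of each gene the means were 1.229 ± 0.306 for Cfb and 1.335 ± 0.275 for C2, the reverse order.

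After culture C3ar1 stood at 67.9 ± 21.6 on the same per-length scale (SD, n = 4), beside C1qa at 69.4 ± 34.8 and below C1qb at 104.9 ± 48.4. C1qb was above C1qa in all 4 libraries, while C1qa was above C3ar1 in 2 of 4. Next came Cfp (39.5 ± 17.3), C5ar1 (35.4 ± 15.2), C3 (28.9 ± 5.79) and C1qc (28.4 ± 14.5). C3ar1 was above Cfp, and Cfp above C5ar1, in all 4 libraries, the latter by a ratio of only 1.06 to 1.17, whereas C5ar1 was above C3, and C3 above C1qc, in 3 of 4. Cfb (1.45 ± 0.403) and C2 (0.344 ± 0.0437) stayed lowest, with Cfb the higher in all 4 libraries. C1qc would stand higher, at 120.7 ± 42.8 before and 45.6 ± 23.3 after culture, if its longest transcript of 1203 bases were used in place of its 1931 exon bases.

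The spread within groups followed the same libraries for most of these genes. After each group's mean was taken off, log2 values of the C1q chains had a Pearson r of 0.994 to 0.998 with each other over the 9 libraries, 0.922 to 0.931 with C3, 0.927 to 0.949 with Cfp, 0.941 to 0.956 with C3ar1 and 0.877 to 0.893 with C5ar1. C3ar1, whose change with culture had the opposite sign, was like the C1q chains highest in B3 and A3 and lowest in B4 and A4, although its order of the other libraries differed in part. C2 had r from 0.023 to 0.034 with the C1q chains, and Cfb lay between, at 0.614 to 0.662. C2 had only 47 to 111 reads per library before and 36 to 45 after culture, which limits the precision of its deviations and of this r. These coefficients describe 9 libraries whose values share depth and cell content, and B4, A3 and A4 have the largest deviations for the C1q chains.

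**Figure D3:**
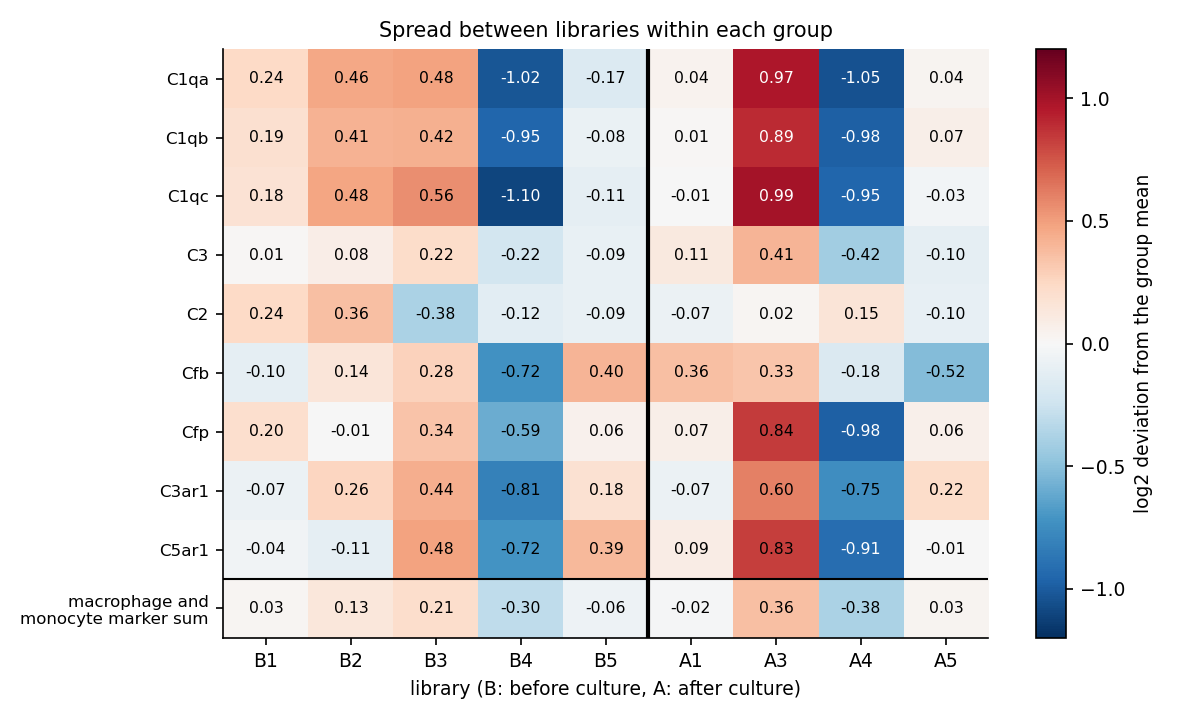
Heat map of the log2 deviation of each gene from its group mean in each library (columns; B before, A after culture; the heavy line parts the groups), with the summed macrophage and monocyte markers in the bottom row. B4 (−1.10 for C1qc) and A4 (−1.05 for C1qa) are low and A3 (0.99 for C1qc) is high for most genes, the marker sum moves the same way with smaller steps (−0.30, −0.38 and 0.36), and C2 does not follow.

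Without B4 and A4, an alternative added after the data were seen, the log2 changes were −1.31 for C1qa, −1.32 for C1qb, −1.44 for C1qc, −1.03 for C3, −1.47 for C2, −0.59 for Cfp and 1.26 for C3ar1, and each of these 7 passed (limma adjusted p from 1.81e-06 to 0.00474). Cfb (0.12, adjusted p = 0.650) and C5ar1 (−0.22, 0.300) again did not pass. In this fit 12575 genes were called, beside 12524 with all libraries.

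By a fixed rule, the 3 genes most like each pattern were taken from 11758 genes outside the complement lists with a mean of at least 100, by the same r of deviations over 9 libraries. For the mean of the C1q chains they were P2rx4, an ATP-gated channel (r = 0.994), Slc38a10 (0.993) and Ap2s1, an adaptor of clathrin-coated pits (0.993). For C3ar1 they were C1rl, a C1r-like protease (0.997), Pgd, an enzyme of the pentose phosphate pathway (0.996), and Dgkz, a diacylglycerol kinase (0.995). They did not change alike with culture: C1rl went from 180 to 107 and Pgd from 4608 to 14270 in mean count.

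For C5ar1 the most similar genes were Sh2b2, an adaptor protein, Eno1, a glycolytic enzyme, and 2510039O18Rik (r from 0.988 to 0.993), for Cfp the membrane protease Mmp14, Gab2 and Atp6v1f (0.992 to 0.996), and for C3 the myosin Myo1e, the kinase Map2k1 and Tspan4 (0.988 to 0.996). For Cfb they were Parp10, Cenpt and the interferon-induced Oasl1 (0.960 to 0.979), and for C2 the replication-associated Timeless, Zfp280b and the receptor Tlr12 (0.884 to 0.908). An r of at least 0.9 was common for the C1q pattern, with 774 genes or 6.58%, and for C3ar1 with 796. It was rare for Cfb with 57 and C2 with 2, both genes with few reads per library.

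The rest of the pathway was taken from a list of 51 other complement genes, all of them in the table, of which 30 were high enough to be tested. Of the 30, 15 fell, 4 rose and 11 did not pass, with a median log2 change of −0.51. Over all genes tested, 34.6% fell and 34.2% rose. By role, 4 of 6 tested initiators fell, as did 3 of 4 central and alternative components, 2 of 3 terminal components and 2 of 3 soluble regulators, groups too small to set against the 34.6% of all genes that fell. Among 5 tested membrane regulators 2 rose and 2 fell, and among 9 tested receptors 2 rose and 2 fell.

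**Figure D4:**
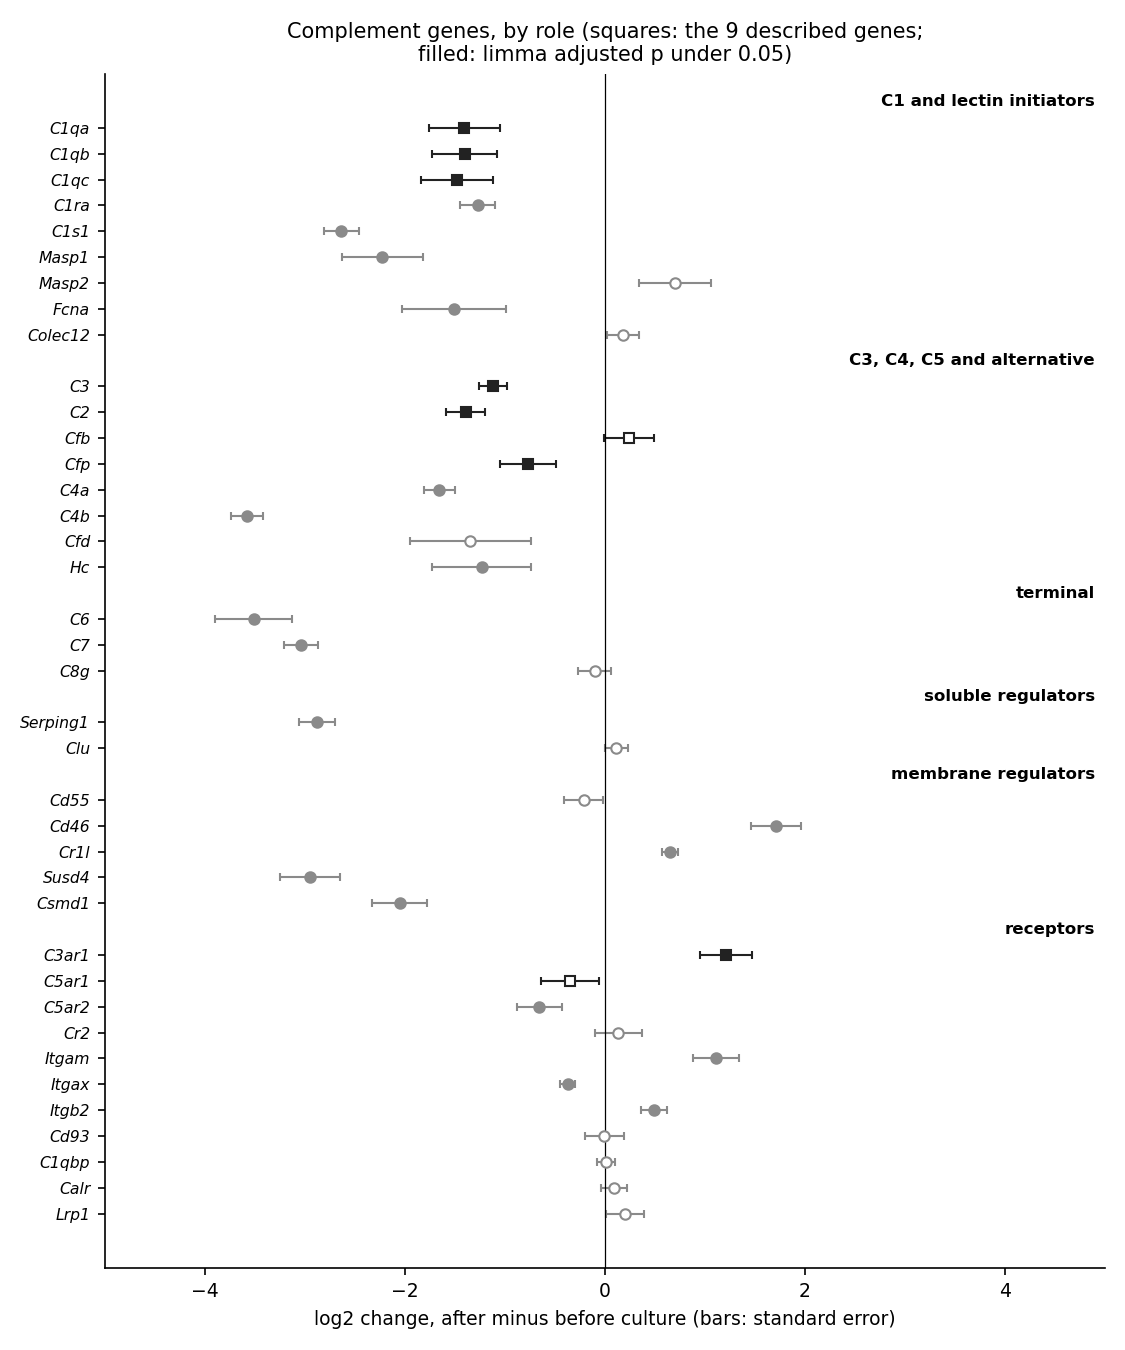
Log2 change with culture (horizontal axis; bars are standard errors) of the 9 genes (squares) and of 29 of the 30 other tested complement genes (circles; 1 is not shown here), grouped by role, filled where the limma adjusted p is under 0.05. Filled marks among the initiators, terminal components and soluble regulators lie left of 0, while membrane regulators and receptors lie on both sides, with C3ar1 at 1.21.

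The proteases that C1q activates fell with it. C1s1 went from 298 ± 53.2 to 47.2 ± 9.21 (SD, n = 5 and n = 4; log2 change −2.63) and C1ra from 342 ± 48.0 to 144 ± 39.9 (−1.27), though 24.3% and 50.8% of the 50-base windows of their longest transcripts also occur in other genes, mostly C1s2 and C1rb. C4b, the partner of C2 in the classical convertase, went from 2111 ± 335 to 178 ± 41.6, 11.9-fold lower (log2 change −3.58), with 35.2% of its windows shared with C4a.

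Among regulators, Serping1, the inhibitor of C1r and C1s, went from 1106 ± 143 to 154 ± 43.4 (SD, n = 5 and n = 4; log2 change −2.88). C7, a component of the membrane attack complex, went from 618 ± 157 to 73.1 ± 10.3 (−3.04). These 5 genes had limma adjusted p from 3.01e-10 to 2.28e-05, and each was lower in all 4 libraries after culture than in all 5 before it. Over the 30 other complement genes tested, 15 had no overlap between the groups, beside 57.3% of all genes tested. All 7 fibroblast markers fell too, with sums of 15822 to 28809 before and 2315 to 4582 after culture and none at 0. So did all 6 endothelial and all 8 epithelial markers, beside 34.6% of all genes tested. The part of fibroblasts, endothelial and epithelial cells in the falls was not tested. B cell markers summed to 1905 to 3453 before and 2142 to 3099 after culture, and of 5 tested 1 rose and 4 did not pass. T and NK cell markers summed to 3202 to 4729 and 2478 to 3324. Of 7 tested, 4 fell (Nkg7, Gzma, Klrb1c and Ncr1), 1 rose (Cd3g) and 2 did not pass. Mast cell and basophil markers summed to 23.3 to 47.0 and 7.95 to 40.0, with Fcer1a and Ms4a2 at 0 in some library.

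Hc, which encodes C5, read 272, 469, 204, 1485 and 200 in B1 to B5, and 144.9, 98.6, 268 and 174 in A1, A3, A4 and A5. B4 stood far above the other libraries, and A4 was the highest after culture. Its log2 change of −1.23 passed (limma adjusted p = 0.0394), and was −0.74 (0.0445) without B4. The call was lost without B2 (0.0767), A1 (0.0837), A3 (0.106) or A5 (0.0669), and under upper quartile scaling (0.0511) or quantile normalization (0.0814). The summed epithelial markers were also highest in B4 (42940, the others 25862 to 30037) and in A4 (8262, the others 4403 to 4840). In B4, Sftpc (16826, the others before culture 4296 to 7467), Sftpb, Sftpd, Epcam and Scgb1a1 were highest. Ager was not, and Cdh1 (5303) and Napsa (7064) were lowest there. Napsa was also lowest in A4 (1528). The part of epithelial cells in the Hc values was not tested.

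Cfd, factor D, which cleaves factor B, was low at 18.4 ± 10.6 and 7.17 ± 4.82 and did not pass (SD, n = 5 and n = 4; limma adjusted p = 0.0627). It passed without B4 (0.0163), without A4 (0.0334), without both (0.00634) and in the DESeq2 Wald test (0.0433). C5ar2, the second C5a receptor, went from 284 ± 76.8 to 180 ± 55.9 (log2 change −0.65, limma adjusted p = 0.0204). It was not called without B2 (0.0519), B3 (0.0525), A4 (0.0640) or A5 (0.0537), nor under quantile normalization (0.0844).

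The 4 complement genes that rose with C3ar1 were receptors and membrane regulators. Itgam, the alpha chain of complement receptor 3 that binds cleaved C3, rose from 1679 ± 442 to 3698 ± 1298 (SD, n = 5 and n = 4; log2 change 1.11, limma adjusted p = 7.64e-04), with 72.4% of its windows shared with Gm49368. Its partner Itgb2 rose from 21702 ± 1429 to 30984 ± 6577 (0.49, limma adjusted p = 0.00391), with an overlap between the groups.

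Cr1l, which encodes Crry, a rodent regulator of the C3 convertase, rose from 1438 ± 113 to 2259 ± 134 (log2 change 0.65) without overlap. Cd46, a cofactor for the inactivation of C3b, rose from 51.5 ± 13.2 to 174.6 ± 65.1 (1.71), also without overlap. Its level was low, with 28 to 80 reads per library before and 149 to 291 after culture. Itgax, the alpha chain of complement receptor 4 and a marker of DCs, fell from 15488 ± 606 to 12019 ± 958 (−0.37, limma adjusted p = 6.84e-04), with 9.61% of its windows shared with Itgad.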

How the data were processed

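Total RNA of 9 libraries was sequenced, and the library numbers in the labels matched each column to a sample. The authors deposited 1 normalized count per gene and library, a signal of 0 or more. The submitters' processing notes name DESeq2 and GRCm38. The aligner, counter, annotation and strand are not given in the sources used here. All values (100%, tolerance 0.01 reads) were whole multiples of 1 step per library, so whole reads were recovered. The 3782 rows without a symbol were left out (3.87 to 10.9% of reads).

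Rows averaging 10 or more were tested with limma 3.58.1 in R 4.3.3 on log2(value + 1), with a mean-variance trend and Benjamini-Hochberg adjustment over 18202 genes, two-sided, at 0.05. A change on this scale understates that of low genes, and a printed fold is the ratio of group means. All 9 genes passed the filter. For single ratios, an exact two-sided permutation test used all 126 assignments of the libraries to the groups. Shared sequence was measured over 50-base windows of GENCODE M21 transcripts.

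Alternatives were pseudocounts of 0.5 and 8, no filter, a minimum mean of 50, TMM, upper quartile and quantile scaling, edgeR 4.0.16 and DESeq2 1.42.0 on recovered reads, replicate blocks and leaving out each library. The scripts were tested on simulated data. The genes, lists and rules were chosen with earlier results of these data known. All 9 genes are named, as are other listed complement genes that passed and average 100 or more, or that share a family with one of the 9, and a few markers, chosen after their values were seen. Some listed genes are not reported here.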

Additional observations from a re-analysis of the deposited data

Results flagged for a closer look

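Among 72 groups of values examined, 5 held a library far from the others, where chance flags about 1 in 20. Hc, which encodes C5, read 1485 in B4 and at most 469 in the other libraries before culture. The summed epithelial markers were 42940 in B4 (25862 to 30037 in the other 4) and 8262 in A4 (4403 to 4840 in the other 3). The summed T and NK cell markers were 4729 in B4, with 3202 to 3552 in the other 4. Cr1l was 2060 in A3, below the 2301 to 2338 of the other 3 libraries after culture. None of the 9 described genes was flagged.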

How the results depend on the processing

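The C1q chains, C3, C2 and C3ar1 kept their direction and their call in every alternative run, with log2 changes from −1.81 to −1.05 for the chains, −1.25 to −0.98 for C3, −1.49 to −1.21 for C2 and 1.01 to 1.46 for C3ar1. Cfp gave −0.67 with DESeq2 and −0.75 with a replicate block on title numbers, both not past the threshold. It gave −1.05 to −0.44 when a library was left out. A replicate block on library numbers, which were not taken as pairs, gave −0.77 for Cfp (limma adjusted p = 5.46e-05). C5ar1 gave −0.62 to −0.045 when a library was left out. The counts of genes called stayed within 1.5 times of those reported, with 12562 by edgeR's quasi-likelihood test and 12663 by DESeq2. With a library left out, the mean log2 ratio of C1qa to C1qb differed by −0.027 to 0.022, C2 to Cfb by −1.80 to −1.49 and C5ar1 to C3ar1 by −1.65 to −1.48; such splits allow no adjusted p under 0.0571 for these ratios, so a lost call says nothing here. The cause of the other differences was not tested. The low reads of C2 (36 to 111) limit its precision.

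The library numbers occur in both groups (1, 3, 4 and 5), as do title numbers. Deviations of same-numbered libraries correlated at 0.045 to 0.349, with 2 of 4 pairs over 0.1, so the numbers were not taken as pairs, although 4 of 4 libraries after and 3 of 4 before culture correlated best with their own library number. For title numbers the range was −0.213 to 0.081. With the library number as replicate block C5ar1 changed by −0.38 (limma adjusted p = 0.00603), and 12865 genes were called. The block on library numbers gave 0.010 for C1qa to C1qb, −1.58 for C2 to Cfb and −1.65 for C5ar1 to C3ar1, and that on title numbers −1.76 and −1.51 for C2 to Cfb and C5ar1 to C3ar1. For C2 to Cfb and C5ar1 to C3ar1 the exact permutation adjusted p was 0.25 with library numbers and 0.167 with title numbers, and 4 pairs cannot pass the threshold.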

Other observations

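The deposited table lists Gm20547, a read-through gene of C2 and Cfb chosen after its value was seen, at 0 in all 9 libraries, while C2 had 36 to 111 reads and Cfb 61 to 168 reads per library. If only exon bases outside Gm20547 are used as length (2216 bases for C2 and 579 for Cfb), the level of Cfb becomes 5.84 ± 1.45 before and 7.10 ± 1.97 after culture, and that of C2 1.59 ± 0.328 and 0.601 ± 0.0764, in RPKM (SD, n = 5 and n = 4). How reads of shared exons were counted is not given in the sources used here.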
